A study of Mus musculus with 4 samples.

Results

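The Nr4a family comprised 3 genes, Nr4a1, Nr4a2 and Nr4a3, and the Zfp36 family comprised 3 genes, Zfp36, Zfp36l1 and Zfp36l2. These 6 genes were taken by their symbols from the 16375 genes that the authors listed, and each of the 6 was present once. All 6 were among the 10959 genes with a mean of at least 0.1 FPKM over the libraries, which are called the tested genes here. FPKM is the number of sequenced fragments per kilobase of gene and per 1000000 fragments of the library. The choice went by gene name and used no measured value as a criterion.

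Macrophages were grown from the bone marrow of WT mice and of lncLy6c KO mice (LNCKO) in medium with M-CSF, and were collected after 24 h with or without 500 µM butyrate. Butyrate is a short-chain fatty acid made by gut bacteria, and lncLy6c is a long noncoding RNA that the study connects to Ly6C-low macrophages. The 4 groups, a control and a butyrate group of each genotype, held 1 library each. The knockout was made on C57BL/6J by CRISPR-Cas9 with guides on either side of the exons of lncLy6c, so it was germline and not limited to macrophages, and the WT strain named in the methods is C57BL/6. The methods describe young C57BL/6 mice of either sex in general, and do not say which mice gave these cultures. Nr4a1 and Zfp36 are genes that the study places in resident macrophages, and the comparisons here ask how their families differed with butyrate and with the loss of lncLy6c in cultured cells.

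Library totals ranged from 53363944 to 65521713 fragments. With 1 library per group no difference had a replicate check, so no p-value was computed, and the intervals below are 95% intervals of the fragment counts (exact Clopper-Pearson) that cover counting error only. The control library of a genotype enters its butyrate comparison and also the genotype comparison, so these comparisons share libraries. The genotype of each library rests on its title, since the library names of both LNCKO samples do not spell their condition, and lncLy6c itself was not analysed here. All 10 macrophage markers were above 0 in all 4 libraries, and so were all 8 B cell markers and all 10 markers of neutrophils and their precursors, so genes that mark other marrow cells were also present. In such bulk RNA, fewer cells of a type and less RNA per cell cannot be told apart. The 4 Y-linked genes examined summed to at most 0.136 FPKM in the WT libraries and to 10.3 and 11.5 FPKM in the LNCKO libraries, so the genotype and the sex of the donors cannot be told apart.

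NR4A proteins are orphan nuclear receptors whose activity is set mainly by how much of them is made. Their genes are immediate early genes, which are transcribed within minutes of a stimulus through kinases of the MAPK and cAMP pathways and through the factors CREB, MEF2 and SRF. NR4A1 (Nur77) is required for Ly6C-low patrolling monocytes in mice. ZFP36 proteins are zinc finger proteins that bind AU-rich elements in the 3′ UTR of mRNAs and recruit the CCR4-NOT deadenylase, so that the mRNA is degraded. ZFP36 (tristetraprolin) is known for its control of Tnf mRNA in macrophages, and its own gene is also an immediate early gene.

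The promoters are shown because the families differed in a motif of the cAMP response element. RefSeq promoter sequences of GRCm38.p6 were matched for 5 of the 6 genes, and Zfp36l2 had no entry. In the 250 bases before the start, the core TGACG of the cAMP response element was searched on either strand, where the opposite strand reads CGTCA. Nr4a1, Nr4a2 and Nr4a3 each held 4 cores, and Zfp36 and Zfp36l1 held 0. Of 32851 promoters of the same length, 17.8% held at least 1 core and 0.137% (45 promoters) held at least 4. The printed bases lie outside the annotated exons, and capitals mark the cores. The sequences are written on the strand of the gene, and the Nr4a3 stretch ends where the first annotated exon begins, so that it shows 3 of its 4 cores. They lie at chr15:101266596-101266845 on the plus strand for Nr4a1, chr2:57124004-57124253 on the minus strand for Nr4a2 and chr4:48045055-48045152 on the plus strand for Nr4a3.
Nr4a1: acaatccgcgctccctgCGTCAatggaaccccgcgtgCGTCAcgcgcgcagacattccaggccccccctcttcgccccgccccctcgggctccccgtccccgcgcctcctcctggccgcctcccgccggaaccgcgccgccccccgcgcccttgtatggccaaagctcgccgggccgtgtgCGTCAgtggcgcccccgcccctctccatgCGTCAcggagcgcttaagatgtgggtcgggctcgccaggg
Nr4a2: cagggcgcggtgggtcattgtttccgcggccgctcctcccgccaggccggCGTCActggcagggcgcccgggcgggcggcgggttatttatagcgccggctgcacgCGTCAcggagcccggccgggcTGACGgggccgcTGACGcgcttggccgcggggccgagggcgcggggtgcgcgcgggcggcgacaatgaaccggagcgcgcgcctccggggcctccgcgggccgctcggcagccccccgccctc
Nr4a3: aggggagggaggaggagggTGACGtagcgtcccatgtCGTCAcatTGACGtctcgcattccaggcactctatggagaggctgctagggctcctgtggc
The core nearest the start began 40 bases before it in Nr4a1, 111 bases before it in Nr4a2 and 147 bases before it in Nr4a3. The start used for Nr4a1 lies inside the annotated gene, in an intron of a longer transcript.

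Zfp36 held 1 CArG box, the binding motif of SRF, which began 58 bases before its RefSeq start and which 1.47% of the promoters held. The printed stretch lies at chr7:28379267-28379296 on the minus strand, inside annotated exon sequence of Zfp36, and capitals mark the box.
Zfp36: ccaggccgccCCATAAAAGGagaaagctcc
The AP-1 site TGAGTCA (4.46% of promoters), the RUNX site TGTGGT (14.0%) and the NR4A site AAAGGTCA (1.34%) were not found in these windows of the 5 genes on either strand. No binding was measured in these data, and a match in the letters is not a site in use.

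The families also differed in the AU-rich motif that ZFP36 proteins are known to bind. The heptamer TATTTAT and the nonamer TTATTTATT, which contains the heptamer, were counted on the transcript strand in the longest annotated 3′ UTR of each gene. Zfp36, Zfp36l1 and Zfp36l2 each held 3 heptamers and 1 nonamer. Nr4a1 held 0 heptamers, Nr4a2 held 1 and Nr4a3 held 2, and none of these 3 held the nonamer. Of the 16034 listed genes with an annotated 3′ UTR, 28.6% held a heptamer, 3.97% held at least 3 and 7.88% held the nonamer. The windows below are centred near the nonamer of each Zfp36 gene and the first nonamer of Tnf and Cxcl2, with the motif in capitals. They lie on GRCm38 at chr7:28376950-28376979 (Zfp36), chr12:80108166-80108195 (Zfp36l1), chr17:84184913-84184942 (Zfp36l2) and chr17:35199688-35199717 (Tnf), all on the minus strand, and at chr5:90905316-90905345 (Cxcl2) on the plus strand.
Zfp36: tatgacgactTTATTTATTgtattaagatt
Zfp36l1: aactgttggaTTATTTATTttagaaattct
Zfp36l2: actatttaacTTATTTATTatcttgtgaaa
Tnf: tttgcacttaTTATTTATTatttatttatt
Cxcl2: gagagttcacTTATTTATTtatctatgtat
Tnf and Cxcl2 held more copies than any Zfp36 gene, with 8 and 7 heptamers.

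The Zfp36 family was abundant in these macrophages and the Nr4a family was scarce. Deposited FPKM were divided by the whole gene span with its introns, so levels of different genes are compared here per kilobase of exon, as recovered fragments per kilobase of exon and per 1000000, assuming that the fragments were counted in exons. On that scale Zfp36 ranged from 130.3 to 170.3, Zfp36l1 from 148.3 to 183.4 and Zfp36l2 from 131.6 to 142.7 over the 4 libraries. These ranges overlap, but the overlap depends on the annotated exons. For Zfp36 the annotated exons together covered all 3470 bases of the span, so its values equal the deposited FPKM. An order of these 3 genes is therefore not drawn from this scale. Nr4a1 ranged from 2.99 to 9.50, Nr4a3 from 2.77 to 3.26 and Nr4a2 from 1.01 to 1.14. Nr4a1 was the highest Nr4a gene in both LNCKO libraries and in both WT libraries, although in WT butyrate it stood at 2.99 beside 2.86 for Nr4a3, with overlapping counting intervals. The lowest Zfp36 family value was thus far above the highest Nr4a value in every library.

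**Figure D1:**
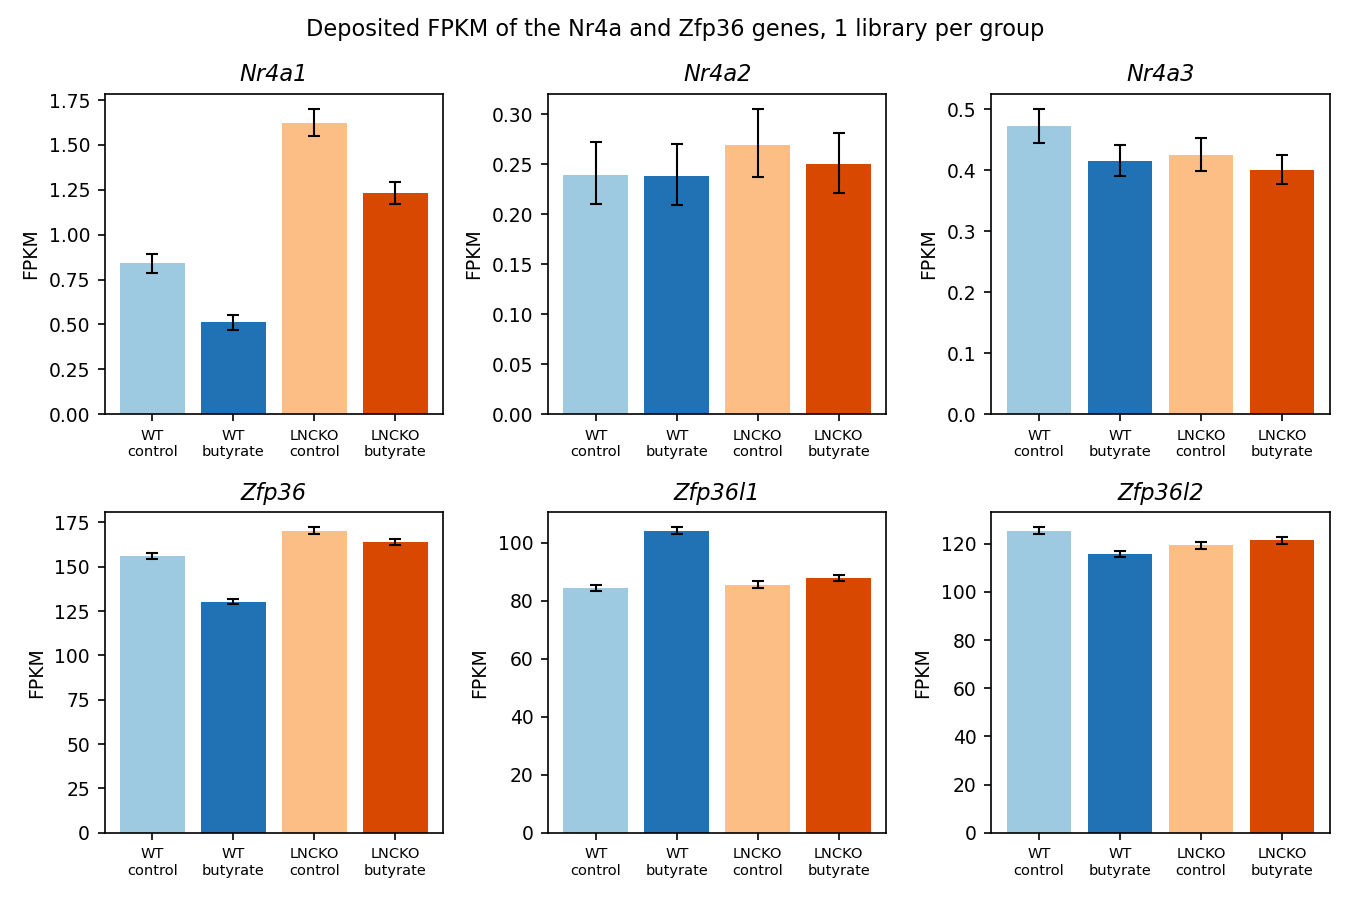
Bars give the deposited FPKM of each gene in the 4 libraries, with a separate vertical axis from 0 for each gene, and error bars give the 95% counting interval of 1 library. Nr4a1 had its 2 highest bars in LNCKO and its lowest in WT butyrate, and the other 5 genes stayed within 1.31-fold between their lowest and highest library.

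Nr4a1 (ENSMUSG00000023034, chr15:101254269-101274795, plus strand) showed the largest difference of the 6 genes in each of the 4 comparisons between libraries. Its deposited level stood at 0.840 FPKM in WT control and 0.511 with butyrate, and at 1.62 in LNCKO control and 1.23 with butyrate, from 972, 621, 1779 and 1657 fragments. Both LNCKO libraries were above both WT libraries, and in either genotype the butyrate library was below its control. The highest level was 3.18 times the lowest.

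With butyrate, the FPKM of Nr4a1 was 0.609 times its control in WT (counting interval 0.549 to 0.674) and 0.759 times its control in LNCKO (0.709 to 0.812). On the main scale, the log2 ratio of FPKM + 0.1, these differences were -0.62 and -0.37. A value higher by more than 25%, or lower by the same factor (0.32 on that scale), is called higher or lower here, and Nr4a1 was the 1 gene of 6 called lower in either genotype. Of all tested genes, 8.35% were called lower with butyrate in WT and 2.64% in LNCKO, and Nr4a1 stood 176th and 208th from the lowest of 10959 genes. None of the 6 was called higher with butyrate, beside 7.38% of the tested genes in WT and 3.6% in LNCKO.

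The level was thus lower with butyrate in both genotypes. The WT difference minus the LNCKO difference was -0.25 on the main scale, which was not called, and -0.32 on the plain ratio with a counting interval from -0.49 to -0.14. None of the 6 genes was called in this difference between the genotypes, whereas 9.36% of the tested genes were called upward and 9.72% downward. The Nr4a1 value came to -0.05 with a pseudocount of 1, and to -0.34, which is called, when FPKM were rescaled to 1000000 per library. The interval holds the counting error of 4 libraries and no difference between cultures, so a dependence of the Nr4a1 change on lncLy6c was not tested.

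Between the genotypes, the FPKM of Nr4a1 in LNCKO was 1.93 times that in WT without butyrate (counting interval 1.79 to 2.09) and 2.41 times with butyrate (2.20 to 2.65). On the main scale with its pseudocount these came to 0.88 and 1.12, the 68th and 58th highest of 10959 genes, and as plain ratios to 0.95 and 1.27. Without butyrate, Nr4a1 was the 1 of the 6 genes called higher in LNCKO, beside 4.5% of the tested genes, and 0 were called lower, beside 3.76%. With butyrate, Nr4a1 and Zfp36 were called higher, which is 2 of 6 beside 8.6% of the tested genes, and 0 were called lower, beside 7.16%. A pseudocount of 1, which is about as large as the Nr4a1 levels themselves, took the genotype differences to 0.51 and 0.56, which were still called, and the butyrate differences to -0.28 in WT and -0.23 in LNCKO, where neither was called.

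Nr4a2 and Nr4a3, which encode Nurr1 and NOR-1, differed much less. Nr4a2 (ENSMUSG00000026826, chr2:57106830-57124003, minus strand) was at 0.240 FPKM in WT control and 0.238 with butyrate, and at 0.270 in LNCKO control and 0.250 with butyrate. All 4 of its counting intervals overlapped, on 232 to 281 fragments, and each of its ratios between libraries had an interval that included 1. For the butyrate ratio these intervals ran from 0.826 to 1.19 in WT and from 0.778 to 1.10 in LNCKO, so a difference of about 1.2-fold was not detectable at this depth.

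Nr4a3 (ENSMUSG00000028341, chr4:48045153-48086447, plus strand) was at 0.472 FPKM in WT control and 0.415 with butyrate, and at 0.425 in LNCKO control and 0.401 with butyrate. WT control was the highest library and the other 3 lay close together. Its butyrate ratio was 0.879 in WT (0.806 to 0.958) and 0.944 in LNCKO (0.864 to 1.03), and its LNCKO to WT ratio was 0.900 without butyrate (0.824 to 0.983) and 0.967 with it (0.887 to 1.05). Without butyrate Nr4a3 therefore stood in the opposite direction to Nr4a1 between the genotypes, at log2 differences of -0.12 and 0.88. Neither Nr4a2 nor Nr4a3 was called in any comparison.

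Zfp36 (ENSMUSG00000044786, chr7:28376784-28380253, minus strand) was at 156.2 FPKM in WT control and 130.3 with butyrate, and at 170.3 in LNCKO control and 163.9 with butyrate, from 26769 to 37255 fragments. As for Nr4a1, WT butyrate was the lowest library, LNCKO control was the highest and both LNCKO libraries were above both WT libraries, over a much narrower range. Its butyrate ratio was 0.834 in WT (0.821 to 0.848) and 0.962 in LNCKO (0.948 to 0.977). Both intervals lay below 1, and neither difference was called, with log2 values of -0.26 and -0.06 beside medians of -0.05 and -0.02 over all tested genes.

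The LNCKO to WT ratio of Zfp36 was 1.09 without butyrate (1.07 to 1.11) and 1.26 with it (1.24 to 1.28). The latter, a log2 difference of 0.33, was just past the call and came to 0.28, which is not called, when the libraries were scaled by their median ratio. It was the 897th highest of 10959 differences. The WT minus LNCKO difference of the butyrate change was -0.21 on the log2 scale.

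Zfp36l1 (ENSMUSG00000021127, chr12:80107754-80113013, minus strand), whose protein shares targets with ZFP36, went the other way in WT. Its level stood at 84.3 FPKM in WT control and 104.2 with butyrate, and at 85.6 in LNCKO control and 87.8 with butyrate. WT butyrate stood alone above the other 3 libraries, which lay within a few percent of each other. The butyrate ratio was 1.24 in WT (1.22 to 1.26) and 1.03 in LNCKO (1.01 to 1.04). The WT value, a log2 difference of 0.31, was just short of the call, and it came to 0.36 and was called with median ratio scaling. With butyrate, LNCKO was at 0.842 times WT (0.829 to 0.856). The WT minus LNCKO difference of the butyrate change was 0.27, the most positive of the 6 genes.

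Zfp36l2 (ENSMUSG00000045817, chr17:84183931-84187947, minus strand), the third gene of the family, varied least among them. It was at 125.4 FPKM in WT control and 115.7 with butyrate, and at 119.4 in LNCKO control and 121.4 with butyrate, so that the highest library was 1.08 times the lowest. Its butyrate ratio was 0.923 in WT (0.908 to 0.938) and 1.02 in LNCKO (1.00 to 1.03). The WT differences of the 3 Zfp36 genes were thus -0.26, 0.31 and -0.12 and did not share a direction.

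Each Zfp36 gene overlaps an annotated gene on the opposite strand that the authors' table did not list. These are Gm44710, which shares 125 exon bases with Zfp36, Gm26669, which shares 1672 exon bases with Zfp36l1, and AC132455.1, which shares 105 exon bases with Zfp36l2. Whether the counting used the strand is not given in the sources used here, and without it the reads of such a pair cannot be told apart. No annotated gene overlapped an Nr4a gene.

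**Figure D2:**
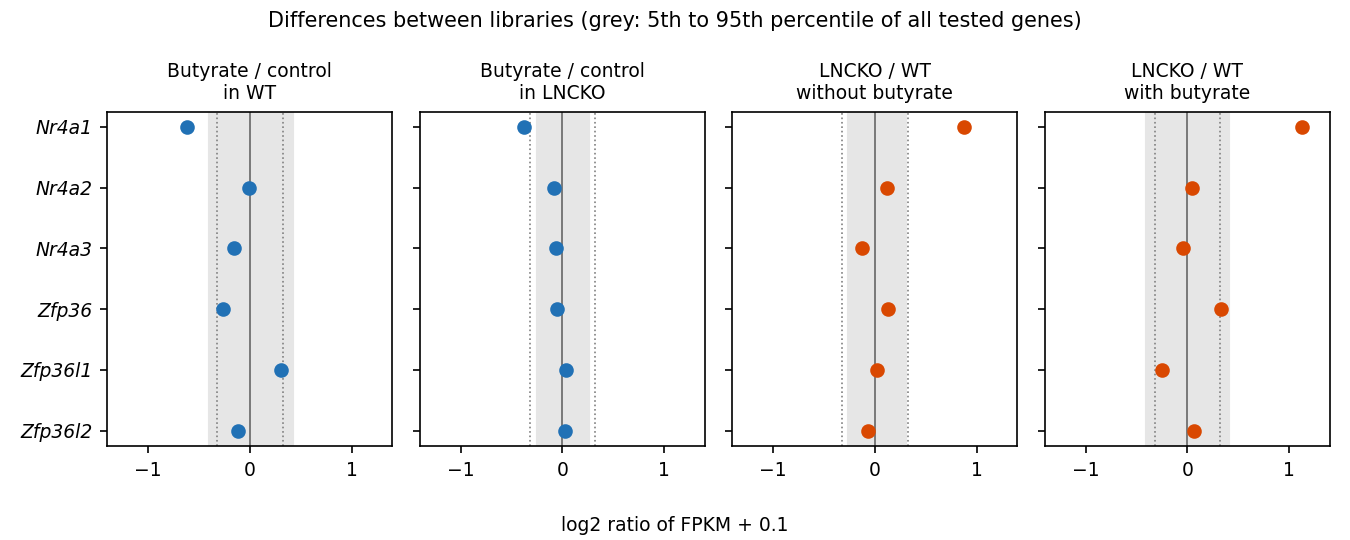
Points give the log2 ratio of FPKM + 0.1 of each gene in the 4 comparisons, the grey band runs from the 5th to the 95th percentile of the tested genes, and dotted lines mark the call. Nr4a1 lies outside the band in all 4 panels, and the other 5 genes lie inside it in all 4.

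The genes whose pattern over the 4 libraries was nearest to that of Nr4a1 included another immediate early gene. Likeness was the root mean square difference of the log2 values of FPKM + 0.1 after centring each gene on its mean, over 6808 genes with a mean of at least 1 FPKM. For Nr4a1 the 3 nearest were Egr2, an immediate early zinc finger factor, at 0.113, Lpl, the lipoprotein lipase, at 0.141 and Mcpt8, a basophil protease, at 0.177. Egr2 was at 1.08 FPKM in WT control and 0.594 with butyrate, and at 1.65 in LNCKO control and 1.32 with butyrate, in the same order of libraries as Nr4a1. For Zfp36 the 3 nearest were Insl6, Fam117a and Otud1, at 0.0083, 0.0097 and 0.0099. With 4 libraries, and with the small range of Zfp36, many genes lie close, and the list describes these libraries only.

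Few of the kinases and factors known to act on Nr4a transcription were called, and few calls are due in a list of this size. The 21 genes of the MAPK and CREB inputs include kinases of the MAPK pathway, Creb1 and its coactivators, Srf and Mef2 genes. With butyrate in WT, 1 was called lower and 0 higher, beside 8.35% and 7.38% of the tested genes. With butyrate in LNCKO 0 were called, beside 2.64% lower and 3.6% higher. In LNCKO against WT 0 were called, beside 4.5% higher and 3.76% lower without butyrate, and 8.6% and 7.16% with it. The gene called was Mef2c, a MADS box factor, at 0.976 FPKM in WT control and 0.695 with butyrate, and at 0.932 in LNCKO control and 0.881 with butyrate. Its log2 difference with butyrate was -0.44 in WT and -0.07 in LNCKO. The WT minus LNCKO difference, -0.36, was also called, as it was downward for 9.72% of the tested genes. The next in size in WT were Rps6ka3 (RSK2), Creb1 and Mef2a, at -0.25, -0.25 and -0.22. The median of the list was -0.09 in WT and -0.04 in LNCKO, beside -0.05 and -0.02 over all tested genes.

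Of the NR4A dimer partners and corepressors, 6 of 7 were tested, and Rxrg, an RXR receptor, was at or near 0 in all 4 libraries. Rcor2, a CoREST corepressor, was the 1 called with butyrate, higher in WT at 0.57 and lower in LNCKO at -0.40, on 69 to 132 fragments a library. It was also the 1 called higher in LNCKO without butyrate, at 0.70. Of all tested genes, 7.38% were called higher with butyrate in WT, 2.64% lower with butyrate in LNCKO, and 4.5% higher in LNCKO without butyrate. Rxra and Rxrb, with which NR4A1 and NR4A2 can dimerise, were within 0.16 of 0 in each of these 4 comparisons.

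The other immediate early genes differed in both directions, and some stood near Nr4a1. Of 21 other immediate early genes tested, 5 were called lower and 2 higher with butyrate in WT, beside 8.35% and 7.38% of all tested genes. In LNCKO 1 was called lower and 0 higher, beside 2.64% and 3.6%. Fosb, an AP-1 subunit, was the 1 gene called lower in both genotypes, at -0.81 in WT and -0.44 in LNCKO. Egr2 was at -0.76 in WT and -0.30 in LNCKO, and Btg2, an antiproliferative factor, was at -0.51 and -0.17. Myc was higher in WT at 0.90, from 8.28 to 15.6 FPKM, and was at -0.10 in LNCKO, and Maff, a small MAF factor, was at 0.62 and -0.09. The median of the list was -0.10 in WT and -0.07 in LNCKO.

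Between the genotypes, 5 of these 21 genes were called higher in LNCKO and 2 lower without butyrate, beside 4.5% and 3.76% of all tested genes. With butyrate 5 were called higher and 1 lower, beside 8.6% and 7.16%. Egr1 was at 33.3 FPKM in WT control and 28.7 with butyrate, and at 51.1 in LNCKO control and 42.5 with butyrate, with LNCKO above WT by 0.62 and 0.57 on the log2 scale. Egr2 was above WT by 0.57 and 1.03. Fosb stood at -0.51 in LNCKO against WT without butyrate and at -0.13 with it, on the other side of 0 from Nr4a1. The medians of the list were 0.13 and 0.20, beside 0.02 and 0.05 over all tested genes.

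**Figure D3:**
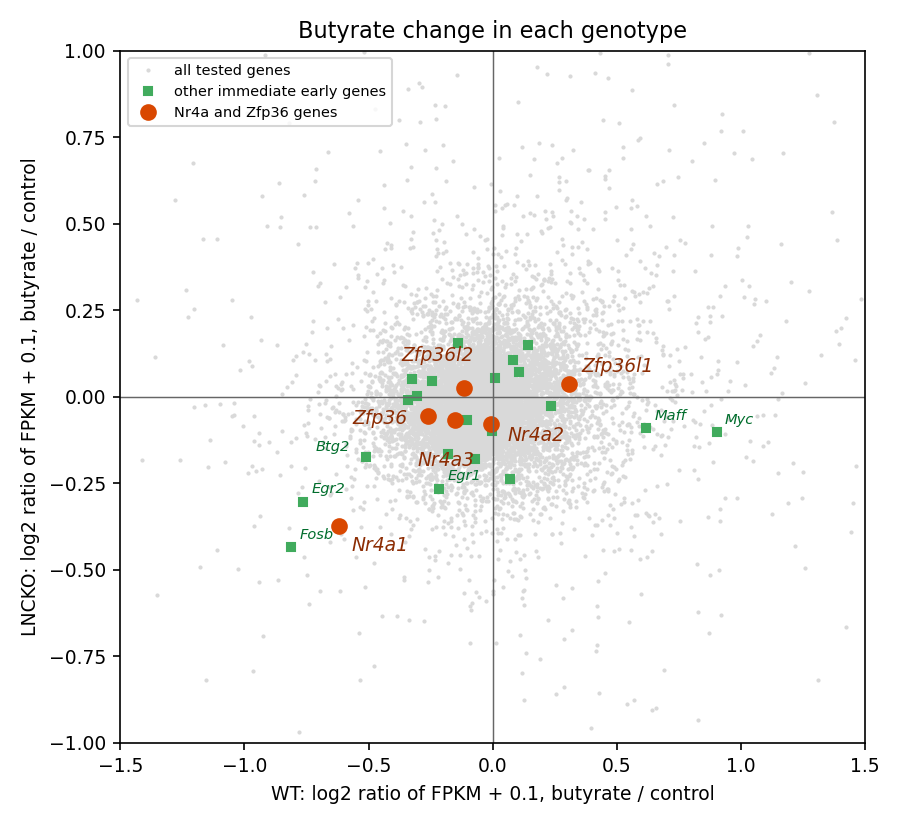
Each point is a gene, with the log2 ratio of FPKM + 0.1 for butyrate over control in WT on the horizontal axis and in LNCKO on the vertical axis, which share no library, and grey points outside the axes are not drawn. Nr4a1 lies near Fosb and Egr2 at the lower left, Zfp36l1, Maff and Myc lie to the right near 0 on the vertical axis, and the other Nr4a and Zfp36 genes lie near the centre.

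The enzymes that act after ZFP36 binding were not called in any of the 4 comparisons between libraries. Few calls are due in lists of this size. Of 17 genes of the CCR4-NOT complex, the decapping factors and the exonuclease Xrn1, 0 were called in any of the 4 comparisons, beside 2.64% to 8.6% of the tested genes in each direction. The largest difference with butyrate in WT was that of the deadenylase Cnot6l, at -0.25. Its WT minus LNCKO difference of -0.38 was the 1 of the 17 that was called. Of all tested genes, 9.36% were called upward and 9.72% downward in that difference. Their medians were -0.09 in WT and -0.05 in LNCKO. Another 8 regulators bind mRNA 3′ ends, such as the stabilising protein HuR (Elavl1) and the endonuclease Regnase-1 (Zc3h12a). Of these, 0 were called in any of the 4 comparisons, beside the same 2.64% to 8.6% in each direction. The largest in WT was Zc3h12a, at -0.21.

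The mRNAs listed here as AU-rich differed in both directions. Of them, Cxcl10, Ccl2, Ccl7 and Il1rn held 0 heptamers, and binding by ZFP36 proteins was not measured. Of 22 cytokine, chemokine and other mRNAs fixed as this list, 20 were tested, Il23a was below the filter and Csf2 was listed at 0 in all 4 libraries. With butyrate, 5 were called higher and 3 lower in WT, and 6 higher and 0 lower in LNCKO, with medians of 0.07 and 0.12 beside -0.05 and -0.02 over all tested genes. In LNCKO against WT, 8 were called higher and 1 lower without butyrate, and 6 higher and 0 lower with it, with medians of 0.25 and 0.10 beside 0.02 and 0.05. Of all tested genes, 4.5% were called higher and 3.76% lower in LNCKO against WT without butyrate, and 8.6% and 7.16% with it. For butyrate against control, the shares were 7.38% higher and 8.35% lower in WT, and 3.6% and 2.64% in LNCKO.

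Tnf, the best known ZFP36 target, was at 5.60 FPKM in WT control and 4.19 with butyrate, and at 5.07 in LNCKO control and 4.42 with butyrate. Its log2 difference with butyrate was -0.41 in WT, which was called, and -0.19 in LNCKO, which was not. Cxcl2, a neutrophil chemokine, was called higher in both, at 0.64 and 0.49, and Cxcl3, a related chemokine, likewise at 1.16 and 0.44. Ccl7, a monocyte chemokine with 0 heptamers, was at 0.98 in WT and 0.10 in LNCKO, and Il6, with 1 heptamer, was at -0.66 and -0.06. Ptgs2, which encodes cyclooxygenase 2, was at 0.12 in WT and 0.52 in LNCKO, and its level in LNCKO butyrate, 4.52 FPKM, was the highest of the 4 libraries. Il6 showed the largest difference between the genotypes, at 0.377 FPKM in WT control and 0.202 with butyrate, and at 0.775 in LNCKO control and 0.738 with butyrate, on 82 to 332 fragments.

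In LNCKO with butyrate, where Zfp36 was at 1.26 times the WT level, Tnf was at a log2 difference of 0.07 from WT and Il6 at 1.47. The stability of these mRNAs and the protein level of ZFP36 were not measured in these data.

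**Figure D4:**
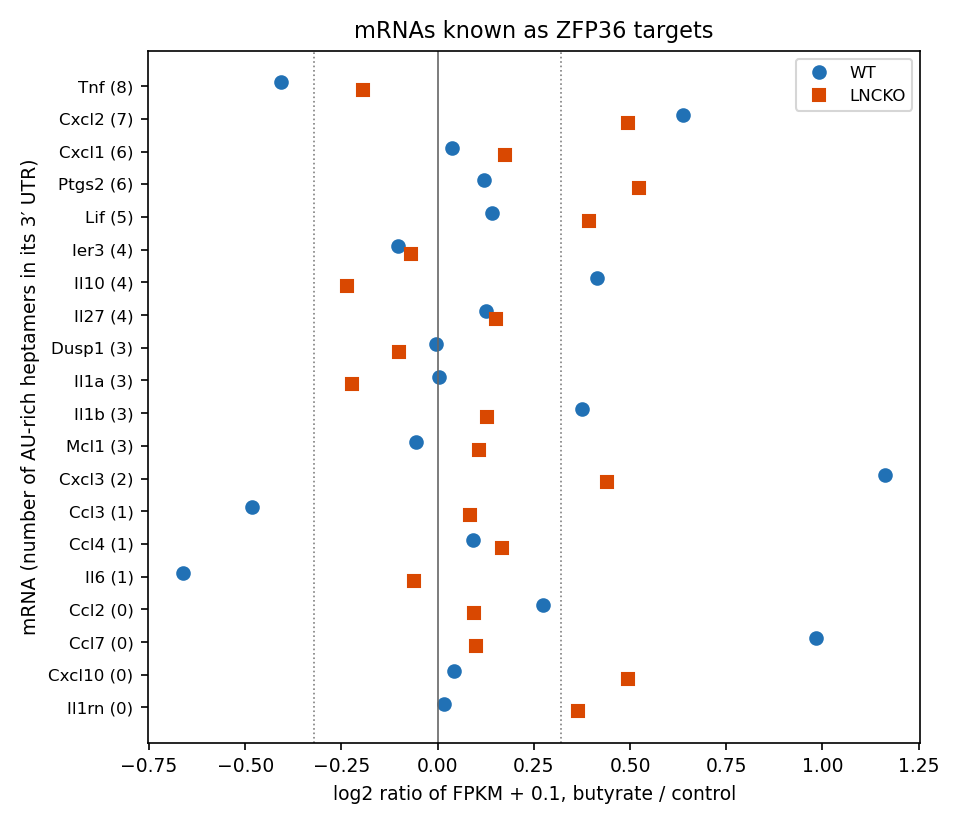
Points give the log2 ratio of FPKM + 0.1 for butyrate over control of 20 mRNAs listed as AU-rich, circles in WT and squares in LNCKO. They are ordered by the number of heptamers in the 3′ UTR (in brackets), and dotted lines mark the call. The plot title calls them ZFP36 targets, which was not tested here. Transcripts with many heptamers lie on both sides of 0, such as Tnf with 8 and Cxcl2 with 7.

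Genes of the Ly6C-low monocyte, the cell that needs NR4A1, differed in both directions. Of 10 such genes, all tested, 2 were called higher and 2 lower with butyrate in WT, beside 7.38% and 8.35% of all tested genes. In LNCKO 0 were called, beside 3.6% higher and 2.64% lower. Their medians were -0.08 in WT and -0.18 in LNCKO, beside -0.05 and -0.02 over all tested genes. Cd36, a scavenger receptor, had the order of libraries of Nr4a1, with log2 differences of -0.34 with butyrate in WT, -0.29 in LNCKO, and 0.57 and 0.62 in LNCKO against WT without and with butyrate. Cx3cr1, the fractalkine receptor, was called lower with butyrate in WT at -0.67, was at -0.01 in LNCKO, and in LNCKO against WT it was at -0.30 without butyrate, which was not called, and at 0.36 with butyrate, which was called higher. Between the genotypes, 2 of the 10 were called higher in LNCKO and 0 lower without butyrate, beside 4.5% and 3.76% of all tested genes. With butyrate 2 were called higher and 1 lower, beside 8.6% and 7.16%.

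A list of 9 genes was taken from those that the study names beside Nr4a1 and Zfp36. Of these, 3 were called higher and 2 lower with butyrate in WT, beside 7.38% and 8.35% of all tested genes. In LNCKO 1 was called higher, Runx3 at 0.41, and 0 lower, beside 3.6% and 2.64%. Jund and Il1b were also counted in the lists of immediate early genes and AU-rich mRNAs above. The study chose some of the 9 genes in related samples. It also reports Runx3 from RNA sequencing of WT and LNCKO macrophages given butyrate for 24 h, the design used here. The direction of these genes is therefore not independent evidence. Hspa1a, a heat shock protein, and Jund, an AP-1 subunit, were lower in WT, at -0.65 and -0.33, and were at -0.28 and 0.05 in LNCKO. Runx3 was at 2.85 FPKM in WT control and 5.73 with butyrate, and at 0.849 in LNCKO control and 1.16 with butyrate, so WT butyrate, its highest library, was the lowest library of both Nr4a1 and Zfp36, and both LNCKO libraries, its lowest, were the highest of Nr4a1 and Zfp36. Its values did not correspond to whole fragments, so no counting interval is given. Of the others, the chemokine Ccl5 was highest in WT butyrate, at 203.4 FPKM beside 81.2 in WT control.

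Markers of other cells moved with these groups. The 8 B cell markers summed to 210.7 FPKM in WT control and 164.2 with butyrate, and to 215.3 in LNCKO control and 217.8 with butyrate. Of the 8, 5 were called lower with butyrate in WT, beside 8.35% of the tested genes. In LNCKO against WT with butyrate, 6 were called higher and 0 lower, beside 8.6% and 7.16%. WT butyrate was thus the lowest library for B cell markers, as for Nr4a1 and Zfp36. The 10 markers of neutrophils and their precursors summed to 2707, 3232, 2341 and 2253 FPKM in the same order. With butyrate in WT, 5 of 10 were called higher and 2 lower, beside 7.38% and 8.35% of the tested genes. In LNCKO against WT with butyrate, 8 of 10 were called lower and 0 higher, beside 7.16% and 8.6%. The 10 macrophage markers summed to 2553, 3471, 2177 and 1449 FPKM, mostly from Lyz2. Of these, 3 of 10 were called lower and 1 higher in LNCKO against WT with butyrate, beside the same 7.16% and 8.6%.

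Among markers of rarer cells, the erythroid sums were higher in both LNCKO libraries than in both WT libraries, as for Nr4a1, and the stromal sums were lower. Erythroid markers summed to 5.99 and 6.68 FPKM in the WT libraries and to 22.6 and 64.6 in the LNCKO libraries, mostly globin, with Klf1 at 0 in LNCKO butyrate. Stromal markers summed to 13.2, 11.2, 3.79 and 7.67 FPKM. In LNCKO without butyrate 6 of 6 tested were called lower, beside 3.76% of the tested genes. Markers of T and NK cells summed to 14.7 and 19.5 FPKM in the WT libraries and to 17.6 and 16.7 in the LNCKO libraries. These sums did not separate the genotypes, and Gzma was at 0 in WT butyrate. Of 7 tested, 4 were called higher and 1 lower in LNCKO without butyrate, beside 4.5% and 3.76% of the tested genes. In LNCKO against WT with butyrate these counts were 5 and 1, beside 8.6% and 7.16%. The part of these cells in the levels of Nr4a1, Zfp36 and Zfp36l1 was not tested.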

How the data were processed

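Per the labels, RNA of the 4 cultures was sequenced, and the authors deposited 1 table of FPKM per gene and library and no counts. The labels name STAR 2.5.0c, Picard 1.126, bedtools 2.17.0 and HTSeq 0.6.0 among the tools and GRCm38 as the build. Their settings are not given in the sources used here, and the labels and the methods name different RNA kits and sequencing platforms. The table held 0 columns that were not matched to a sample.

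Fragments were recovered as FPKM times the gene span in GENCODE M21 (GRCm38) times the library total. With the totals that gave the most whole numbers, 16076 of 16342 matched genes (98.4%) were whole in all 4 libraries within 0.01, all 6 family genes included. Totals without and with butyrate were 56392028 and 59195293 fragments in WT and 53363944 and 65521713 fragments in LNCKO. Paired reads carried no molecular identifiers, so intervals cover counting error only.

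Comparisons used log2 of the ratio of FPKM + 0.1 and genes with a mean of at least 0.1 FPKM. The small pseudocount was used because division by whole spans makes FPKM of genes with long introns low. Beside the 6 genes, each of 15 gene lists was given by its counts and by up to 4 members with the largest difference in a comparison, together with some genes the study names, genes nearest in pattern and genes that overlap a family member. Tnf and list members named as examples or for a level near 0 were chosen after their values were seen. The genes and lists were chosen with earlier results of these data known. The interval of the difference between 2 butyrate changes used a normal approximation. Sequences came from RefSeq (promoters) and GENCODE transcripts (3′ UTRs).

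On simulated data 4 of 4 totals were recovered, and 100 of 100 genes raised 2-fold and 100 of 100 lowered 2-fold were called, as were 99 of 10574 unchanged genes, with counting noise and no spread between cultures, so this is no rate of false calls here. The alternatives were a pseudocount of 1 or none, median ratio scaling, rescaling to 1000000, a filter at a mean of 1 FPKM or none, and 1.5-fold or 2-fold as the call. The work used pandas 2.3.3, scipy 1.17.1 and numpy 2.4.6 in Python 3.11.15, with matplotlib 3.10.9 for plots. Further assays that the study describes were not used here.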

Additional observations from a re-analysis of the deposited data

Results flagged for a closer look

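Several genes around the families moved in opposite directions with butyrate in the 2 genotypes, by at least 0.1 on the log2 scale of FPKM + 0.1 in each. With 1 library per group, the difference between the genotypes was not tested for any of them. Rcor2, a CoREST corepressor, was at 0.57 in WT and -0.40 in LNCKO, which differ by 0.97. Myc was at 0.90 and -0.10, which differ by 1.01. Il10, an anti-inflammatory cytokine whose mRNA is AU-rich, was at 0.41 and -0.24, which differ by 0.65. Treml4, a marker of Ly6C-low monocytes, was at 0.39 and -0.24, which differ by 0.63. Cnot6l, a deadenylase of the CCR4-NOT complex, was at -0.25 in WT and 0.12 in LNCKO, a difference of -0.38. None of the 6 Nr4a and Zfp36 genes moved in opposite directions by that much in both genotypes.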

How the results depend on the processing

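The difference of each of the 6 genes was recomputed under 4 other pseudocounts or scalings in 5 comparisons, where 99 values moved by less than the reach of their counting interval and 21 by more. The 1 gene whose difference changed sign was Nr4a2 with butyrate in WT, which ran from -0.06 to 0.03. Nr4a2 and Nr4a3 were left out by the filter at a mean of 1 FPKM. With a pseudocount of 1, Nr4a1 stood at -0.28 and -0.23 with butyrate in WT and LNCKO, at 0.51 and 0.56 in LNCKO against WT without and with butyrate, and at -0.05 for the difference between the butyrate changes, so that 0 of the 6 genes were called lower with butyrate in either genotype. With median ratio scaling, Zfp36l1 was the 1 gene called higher with butyrate in WT, at 0.36, and Nr4a1 was the 1 gene called higher in LNCKO with butyrate. Rescaling to 1000000 moved the median of all genes with butyrate in WT to -0.11, and Nr4a1 was then the 1 gene called lower in the difference between the butyrate changes, at -0.34. At 1.5-fold, 0 of the 6 were called lower with butyrate in LNCKO and 1 was called higher in LNCKO with butyrate. At 2-fold, 0 were called lower with butyrate in WT and 0 in LNCKO, 0 were called higher in LNCKO without butyrate and 1 with it.

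Counts over all genes follow as higher and lower. With butyrate in WT they were 809 and 915 as reported, 275 and 237 at a pseudocount of 1, 316 and 444 over genes averaging at least 1 FPKM, 294 and 201 at 1.5-fold, 99 and 53 at 2-fold, 1017 and 675 with median ratio scaling, and 814 and 1621 after rescaling. With butyrate in LNCKO they were 394 and 289, and then 100 and 52, 127 and 84, 148 and 84, and 54 and 33 under the same settings, with 630 and 474 without a filter, 480 lower with no pseudocount, and 485 and 535 after rescaling. In LNCKO against WT without butyrate they were 493 and 412, and then 125 and 107, 177 and 127, 170 and 165, and 55 and 67, with 655 lower without a filter. With butyrate they were 943 and 785, and then 307 and 229, 479 and 303, 261 and 279, and 74 and 87, with 725 and 946 under median ratio scaling and 1488 and 806 after rescaling. For the difference between the butyrate changes they were 1026 and 1065, and then 342 and 360, 413 and 511, 382 and 313, and 128 and 109. The median of the T and NK cell markers in LNCKO against WT with butyrate was 0.63 and turned to -0.22 over genes averaging at least 1 FPKM, which are fewer. Of the other list medians, 402 moved by less than 0.1 and 47 by more, and of the counts of list members called, 955 stayed within 1.5 times the reported count and 245 did not.

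No paired analysis was possible because each group held 1 library, and leaving out a library would have emptied its group. Depth limited Nr4a2, at 232 to 281 fragments, more than any other of the 6 genes, while for the Zfp36 family counting error was small and the unknown spread between cultures was the limit.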
